A study of Mus musculus with 4 samples.

Results

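Prostaglandins and leukotrienes are lipid signals made from arachidonic acid, and 9 genes that make or sense them were followed across the cell types of mouse 4T1 mammary tumours. The 9 genes are Ptgs1, Ptgs2, Ptges, Hpgds, Ptger2, Ptger4, Alox5, Alox5ap and Ltb4r1. Each symbol matched 1 row among the 55450 genes of a 10x Genomics single-cell RNA-sequencing matrix. Female BALB/c mice aged 6–8 weeks carried 4T1 cells, a mouse mammary carcinoma line, in the right flank (1000000 cells per mouse). PBS or TIOs were given into a vein on day 7, near-infrared (NIR) light of 980 nm was applied for 5 min at 1.0 W cm-2 on days 8, 9 and 10, and tumours were taken on day 13. Of the 4 samples, 2 were PBS+NIR and 1 was TIOs+NIR, so light was common to both groups. The sample titled PBS was put in no group, because its title and its protocol disagreed. Barcodes carried 4 suffixes, 1 per library, and no source used here linked a suffix to a sample. The libraries are therefore shown apart, as libraries 1 to 4 of unknown treatment, with no comparison of treatments and no p-value.

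Cyclooxygenases (Ptgs1 and the inducible Ptgs2, also called COX-1 and COX-2) turn arachidonic acid into prostaglandin H2. Terminal synthases then make the single prostaglandins, with Ptges making prostaglandin E2 and Hpgds making prostaglandin D2. Ptger2 and Ptger4 are the prostaglandin E2 receptors EP2 and EP4, which raise cyclic AMP. On the other branch, Alox5 (5-lipoxygenase) works with its helper protein Alox5ap (FLAP) to start leukotriene synthesis, and Ltb4r1 (BLT1) is the high-affinity receptor for leukotriene B4, an attractant of neutrophils. In tumours, prostaglandin E2 is known for restraining T cells and dendritic cells (DCs).

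Promoter windows from RefSeq (GRCm38.p6, 250 bases before to 50 after the start) were found for 8 of the 9 genes, all but Alox5ap. Ptgs2 is shown because it is the inducible gene of the set and held 3 of the motifs searched, and Hpgds, Ptgs1 and Ltb4r1 because they shared an 8-letter match. Capitals mark short motifs that were chosen after the sequences had been read, and each was searched on both strands.
Ptgs2, chr1:150099781-150100080, plus strand: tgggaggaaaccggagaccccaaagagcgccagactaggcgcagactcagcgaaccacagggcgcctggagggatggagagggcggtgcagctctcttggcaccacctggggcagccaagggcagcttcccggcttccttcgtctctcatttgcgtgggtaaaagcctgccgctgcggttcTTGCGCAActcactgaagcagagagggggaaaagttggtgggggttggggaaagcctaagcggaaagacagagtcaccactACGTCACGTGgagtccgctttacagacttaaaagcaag
Hpgds, chr6:65144681-65144980, minus strand: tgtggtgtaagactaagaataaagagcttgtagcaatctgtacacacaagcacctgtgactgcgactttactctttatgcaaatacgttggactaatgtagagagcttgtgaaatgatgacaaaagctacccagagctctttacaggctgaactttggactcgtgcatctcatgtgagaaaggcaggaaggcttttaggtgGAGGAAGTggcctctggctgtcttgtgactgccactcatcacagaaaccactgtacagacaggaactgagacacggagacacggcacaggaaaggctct
Ptgs1, chr2:36230176-36230475, plus strand: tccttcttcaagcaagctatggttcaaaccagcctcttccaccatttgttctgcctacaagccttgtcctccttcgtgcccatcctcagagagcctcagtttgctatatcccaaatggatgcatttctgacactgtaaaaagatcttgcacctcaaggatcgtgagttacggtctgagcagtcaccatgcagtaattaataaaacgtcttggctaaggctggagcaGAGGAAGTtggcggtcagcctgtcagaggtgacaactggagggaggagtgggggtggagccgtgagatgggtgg
Ltb4r1, chr14:55765712-55766011, plus strand: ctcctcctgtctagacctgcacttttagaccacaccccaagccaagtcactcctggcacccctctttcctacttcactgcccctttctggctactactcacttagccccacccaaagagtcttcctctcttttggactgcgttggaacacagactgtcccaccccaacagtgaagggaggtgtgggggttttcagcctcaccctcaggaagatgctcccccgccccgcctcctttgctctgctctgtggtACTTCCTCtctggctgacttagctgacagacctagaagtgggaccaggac
In the Ptgs2 window the capitals are TTGCGCAA, a C/EBP-type palindrome that starts 69 bases before the start of the gene, and the overlapping pair ACGTCA (cyclic AMP response type) and CACGTG (E-box), at bases 13 and 17 after it. Of all 32851 windows of the same length, 0.183% held TTGCGCAA, 7.51% held ACGTCA and 7.15% held CACGTG. In the other 3 windows the capitals are GAGGAAGT, or its reverse ACTTCCTC in Ltb4r1, which is a PU.1-type motif. PU.1 is a transcription factor of myeloid cells. The motif stood 24 bases before the RefSeq start of Ptgs1, 49 bases before that of Hpgds and at base 1 of Ltb4r1. The RefSeq start of Hpgds lies 178 bases inside the gene as GENCODE vM21 gives it, so its motif is within the GENCODE gene, while both starts are the same for the other 3 genes printed. The PU.1-type motif was in 3 of the 8 member windows and in 3.20% of all windows. Since the letters were chosen with the member windows in view, these figures do not measure enrichment. A match describes the letters and not the binding of a factor.

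Of 33064 barcodes, 32133 had at least 300 genes and at most 15% mitochondrial UMIs (unique molecular identifiers, the counted molecules). A cell was put in a class, such as neutrophil, when it had UMIs of at least 3 of 6 marker genes of that class and more than of any other class. This gated 83.7% of cells, with 79.4% to 86.3% per library. The libraries held 69255999 to 108646352 UMIs and shared 11 to 22 cell barcodes per pair. A sort for CD45, a surface protein of leucocytes (gene Ptprc), came before the libraries, yet 29.8% of kept cells fell in tumour, fibroblast or other non-leucocyte classes, from 14.2% in library 4 to 52.5% in library 1. Ptprc UMIs were seen in 14.7% of tumour or epithelial cells, in 33.1% of fibroblasts and in 67.8% of neutrophils. The share of fibroblasts ran from 16.8% in library 1 to 51.0% in library 4. These shares are without thinning, at a median of 20372 UMIs per fibroblast and 1823 per neutrophil. The part of leucocyte RNA in the fibroblast values was not tested. Library 1 stood apart, with 3819 of the 3983 tumour or epithelial cells and 776 of the 8526 neutrophils. Library 4 held 3224 of the 4095 monocytes. Levels are given as CPM, the gene's UMIs per 1000000 UMIs of a class, with exact 95% Poisson intervals in brackets. Shares of cells carry exact (Clopper-Pearson) 95% binomial intervals. These intervals cover counting error only. Each library is 1 sample, and without a link to the sample groups no libraries could be treated as replicates. CPM was compared between classes and libraries for a single gene and not between genes.

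The 9 genes differed in the class where each was highest. Pooled over libraries, Ptgs2 was highest in neutrophils, Ptges in fibroblasts, Ptgs1 and Hpgds in macrophages, Ptger4 in mature DCs and Ltb4r1 and Alox5ap in monocytes, among the 13 classes with at least 50 cells. Alox5 and Ptger2 had no clear leader even by pooled counts, since their top 2 classes had overlapping intervals. Those intervals cover counting error only. The leading class also changed between libraries for Ptgs1, Ptgs2, Ptger4 and Alox5ap. Ptges, with 72.7% of its UMIs in fibroblasts, and Hpgds, with 52.3% in macrophages, had over 50% of their UMIs in 1 class, which is 2 of 9 genes against 24.1% of the 13464 genes with at least 500 UMIs. These are pooled shares, and the share of Ptges in fibroblasts was 18.2% in library 1. A share of UMIs also depends on how many UMIs of all genes a class holds. Ptges, Hpgds and Ltb4r1 had the same leading class in all 4 libraries, which is 3 of 9 genes against 9.77% of those 13464 genes.

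**Figure D1:**
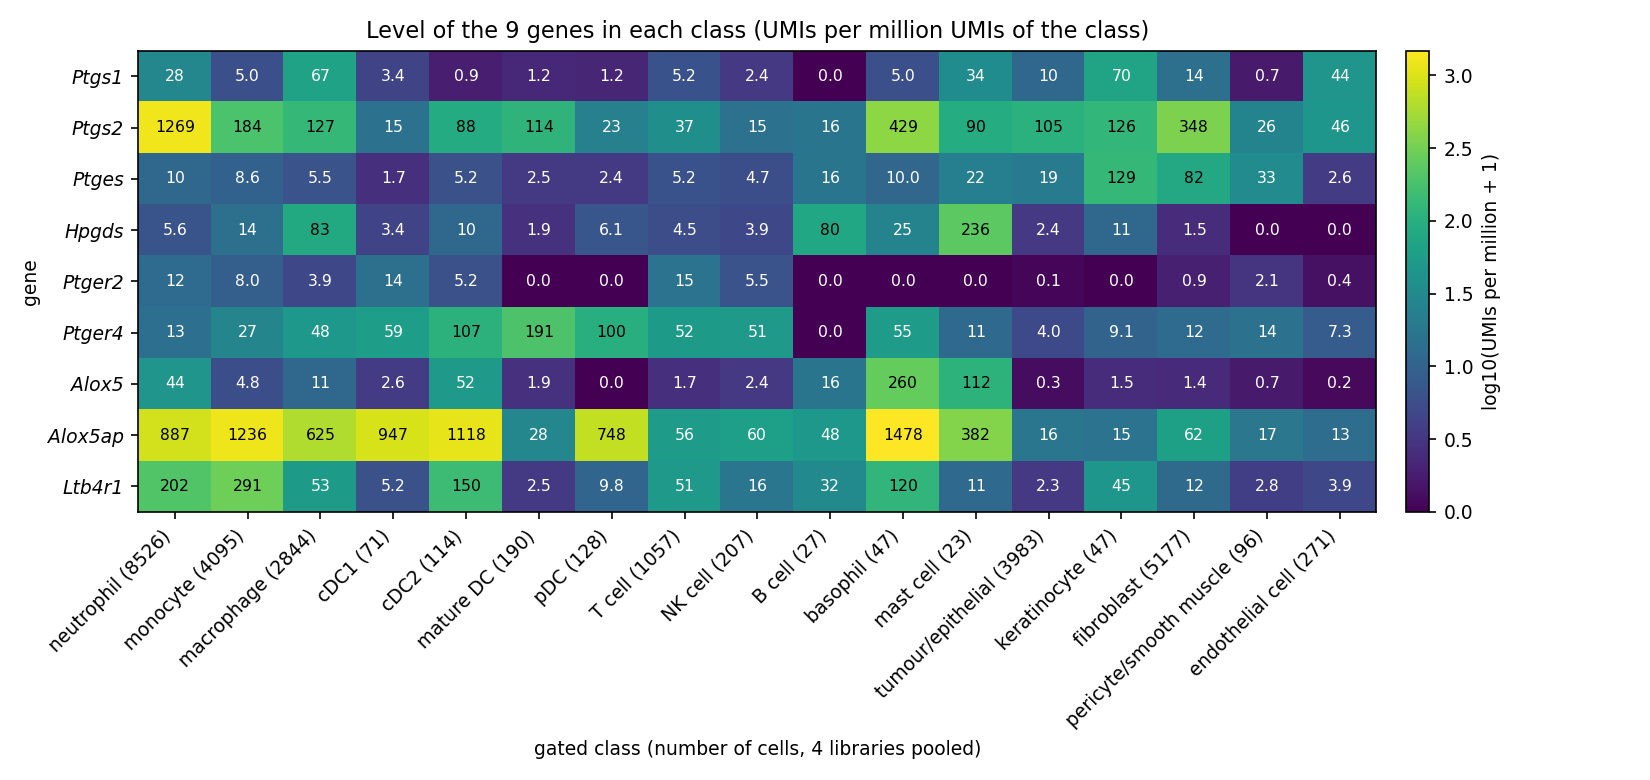
Heat map of the 9 genes (rows) in the gated classes with at least 20 cells (columns, cell numbers in brackets, libraries pooled). Numbers are UMIs per 1000000 UMIs of the class and colour is their log10 after adding 1. Ptgs2 peaked in neutrophils at 1269, Ptges among the large classes in fibroblasts at 82, and Ptger4 in mature DCs at 191.

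Ptgs2 (chr1:150100031-150108227, plus strand, GRCm38) had 101538 UMIs, and its level was 1269 CPM (1253–1285) in neutrophils against 348 CPM (345–352) in fibroblasts. Neutrophils read 313, 1582, 1202 and 1388 CPM in libraries 1 to 4. Library 1 was therefore low, and its interval (288–340) did not overlap the others. With each cell thinned to 1000 UMIs, 23.7%, 57.0%, 48.8% and 59.9% of neutrophils had a Ptgs2 UMI in libraries 1 to 4, so the low value in library 1 held at equal depth. Fibroblasts followed another order, with 243, 492, 417 and 116 CPM, and library 4 was lowest. Monocytes, the blood-derived precursors of macrophages, gave 392, 487, 462 and 130 CPM, again lowest in library 4. Macrophages gave 110, 209, 181 and 67.3 CPM, and library 2 was highest and library 4 lowest in all 3 of these classes. In library 1 monocytes led neutrophils with overlapping intervals (332–459 and 288–340).

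T cells, which were taken as a class that should lack Ptgs2, read 25.2 to 47.5 CPM. In pooled cells 10.9% of T cells (median 4049 UMIs per cell) and 64.0% of neutrophils (median 1823 UMIs) had a Ptgs2 UMI, and after thinning these shares were 2.39% (1.55–3.51) and 52.0% (50.9–53.1). Ptgs2 UMIs were also counted per 1000 UMIs of S100a8, an abundant neutrophil transcript. T cells had 187, 283, 74.9 and 127 in libraries 1 to 4, and neutrophils 8.78, 57.8, 46.1 and 42.2. The values were closest in library 3, where T cells read the highest level, 47.5 CPM. The part of neutrophil RNA in the T cell values was not tested. Fibroblasts had a thinned share of 24.4% and tumour or epithelial cells one of 8.33%. Without thinning, 67.8% of fibroblasts had a Ptgs2 UMI. Their mean was 8.73 Ptgs2 UMIs per cell, above the 2.79 of neutrophils. Tumour or epithelial cells differed between the libraries that held them, at 86.3 CPM in library 1 (3819 cells) and 361 CPM in library 2 (163 cells). Because fibroblasts had a median of 20372 UMIs per cell, they held 44.5% of all Ptgs2 UMIs against 23.4% for neutrophils. By library, fibroblasts held 6.36%, 50.6%, 59.1% and 26.3%, and neutrophils 5.27%, 21.8%, 26.2% and 33.9%. The order was thus turned in library 4, and in library 1 tumour or epithelial cells held 60.7%. Of the UMIs of all genes in library 1, tumour or epithelial cells had 77030072, fibroblasts 2863019 and neutrophils 1842571. The Ptgs2 UMIs of fibroblasts were concentrated, with 60.3% of them in the top 10% of cells and up to 257 in a single cell.

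**Figure D2:**
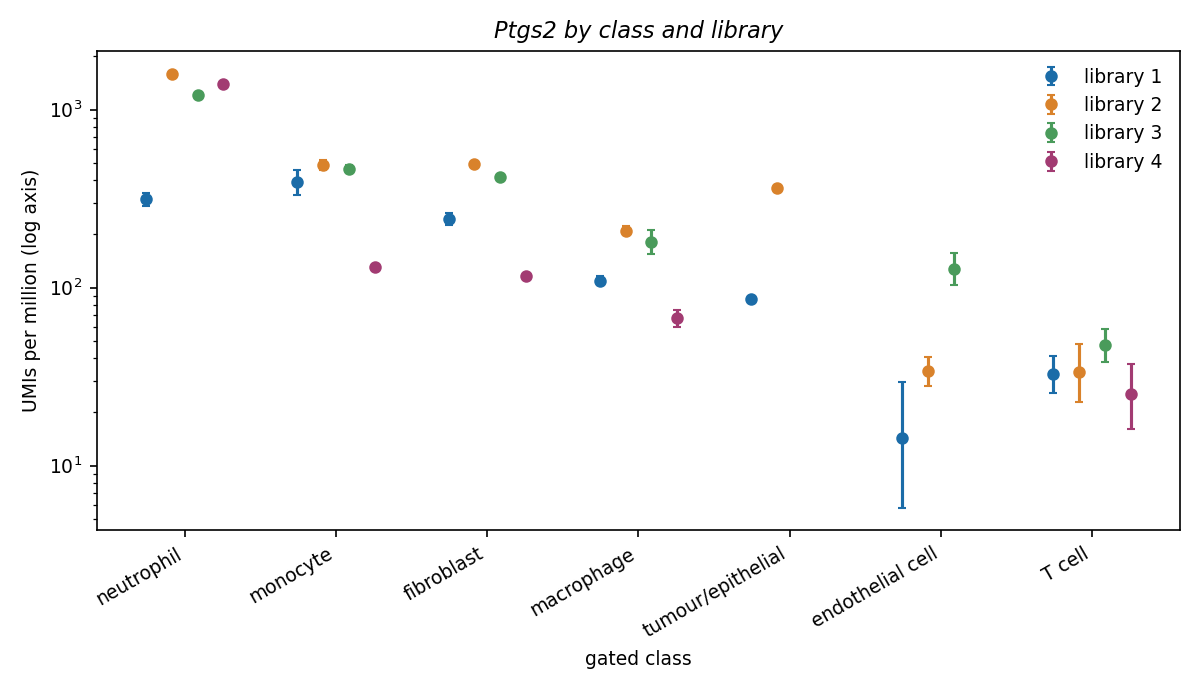
Ptgs2 level (UMIs per 1000000, log axis) in 7 classes, with 1 point per library and exact 95% Poisson intervals; classes with under 20 cells in a library are left out. Neutrophils of library 1 sit at 313 and those of libraries 2 to 4 at 1202 to 1582, while library 4 is lowest in monocytes, fibroblasts and macrophages.

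Neutrophils were divided by Retnlg, a secreted protein gene of mature neutrophils and 1 of the 6 gate markers. Cells with Retnlg UMIs had less Ptgs2 than cells without, at 187 against 534 CPM in library 1, 1383 against 1676 in library 2, 1164 against 1233 in library 3 and 1205 against 1560 in library 4. The intervals of the pair were apart in libraries 1, 2 and 4 and overlapped in library 3 (1127–1201 and 1198–1268). After thinning, 15.6% of cells with Retnlg and 33.7% of cells without had a Ptgs2 UMI in library 1. These shares were 56.3% and 62.6% in library 4. They were close in library 2 (56.3% and 57.3%) and in library 3 (49.3% and 48.5%, in the other order). Library 1 was the lowest in both subsets. It also had the largest share of cells with Retnlg (420 of 776 neutrophils, against 753 of 2732 in library 2). Alox5ap, which belongs to the leukotriene branch, went the other way in library 1, with 1520 CPM in cells with Retnlg and 572 CPM in cells without. The difference was smaller in library 2 (748 and 642 CPM). In libraries 3 (834 and 880 CPM) and 4 (1114 and 1075 CPM) the intervals of the pair overlapped.

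**Figure D3:**
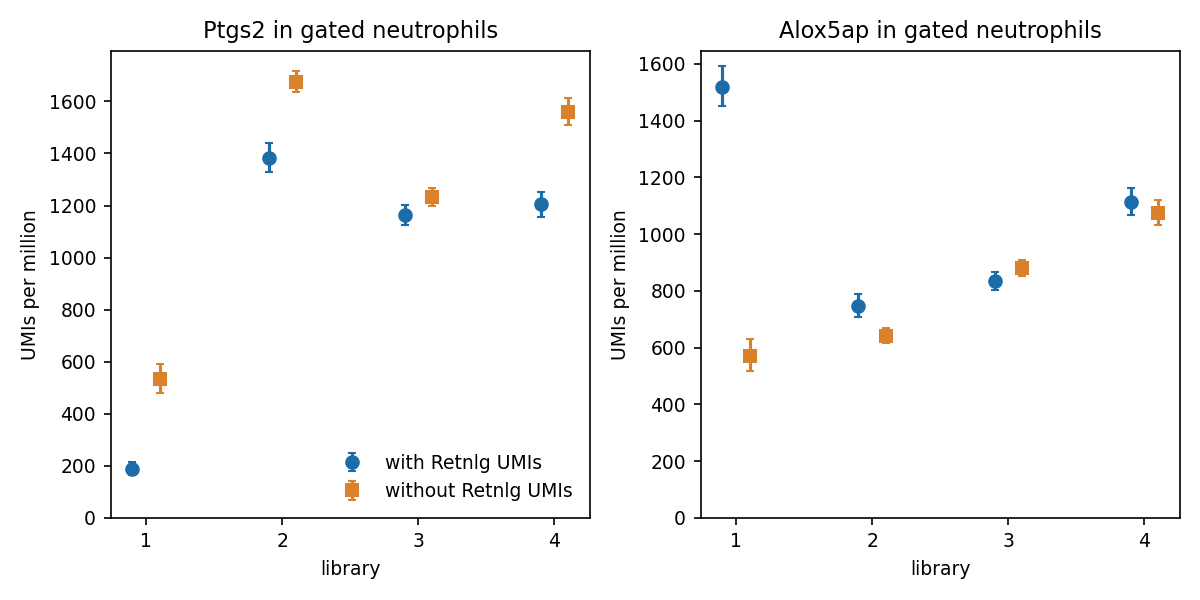
Levels of Ptgs2 (left) and Alox5ap (right) in gated neutrophils with (circles) and without (squares) Retnlg UMIs, in UMIs per 1000000 with exact 95% Poisson intervals, by library. In library 1 Ptgs2 was 187 with Retnlg and 534 without, and Alox5ap was 1520 with and 572 without.

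Ptgs1 (chr2:36230426-36252272, plus strand), the constitutive cyclooxygenase, had 6100 UMIs and depended on the library. Its pooled level was 66.6 CPM (63.4–69.9) in macrophages and 44.2 CPM (38.6–50.4) in endothelial cells. Macrophages read 113, 31.4, 4.31 and 4.25 CPM in libraries 1 to 4. Library 1 was highest and library 2 intermediate, and the interval of library 1 (107–119) lay above those of the other 3. T cells were also highest in library 1, at 11.2 CPM against 1.05 to 2.55 CPM in the others, and the part of this background in the macrophage values was not tested. After thinning, 10.6%, 2.99%, 0.654% and 0.521% of macrophages had a Ptgs1 UMI in libraries 1 to 4, against 0.191% of all T cells. The 1228 macrophages of library 1 had 49.6% of their Ptgs1 UMIs in the top 10% of cells. Within library 1, macrophages with Arg1, an arginine-degrading enzyme of tumour macrophages, read 140 CPM and those without read 94.2 CPM. After thinning, 10.6% of both subsets had a Ptgs1 UMI, so the difference was not seen in the share of cells at equal depth. Endothelial cells had 12.3, 40.1 and 55.7 CPM in libraries 1 to 3, and their 16 cells in library 4 had 92.4 CPM. Neutrophils read 14.7, 23.9, 42.7 and 16.0 CPM, with library 3 highest. Without library 1, endothelial cells led macrophages (log2 ratio of macrophage to endothelial level -1.45, against 0.59 with it). The 47 keratinocytes, all from library 1, read 69.6 CPM (51.0–92.9).

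Ptges (chr2:30889471-30929863, minus strand), the inducible prostaglandin E2 synthase, had 14636 UMIs and a level of 81.9 CPM (80.4–83.5) in fibroblasts. Fibroblasts read 141, 76.7, 93.4 and 69.3 CPM in libraries 1 to 4 and were above every other ranked class in each. Their share of all Ptges UMIs was 18.2%, 78.4%, 92.3% and 74.0%, low in library 1, where tumour or epithelial cells held 62.7%. Library 1 had 77030072 UMIs of all genes in tumour or epithelial cells and 2863019 in fibroblasts. The next ranked class was pericytes or smooth muscle cells at 32.6 CPM (23.9–43.5). Neutrophils, the leading class of Ptgs2, had only 10.3 CPM (8.90–11.9) of Ptges, and its interval overlapped that of monocytes at 8.64 CPM (7.67–9.69). T cells read 5.22 CPM (3.54–7.40). Tumour or epithelial cells stood between, at 18.7 CPM (17.8–19.7). Keratinocytes again were high, at 129 CPM (103–159) in 47 cells, which overlapped the fibroblasts of the same library (128–156). Thinned shares were 7.40% of fibroblasts, 0.900% of neutrophils and 0.191% of T cells. Without thinning, 56.4% of fibroblasts had a Ptges UMI.

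Hpgds (chr6:65117293-65144908, minus strand), which makes prostaglandin D2, had 3865 UMIs and read 83.2 CPM (79.6–86.9) in macrophages against 14.0 CPM (12.7–15.3) in monocytes. Macrophages gave 88.9, 92.0, 41.0 and 67.3 CPM in libraries 1 to 4. Library 3, with 161 macrophages, was lowest, and libraries 1 and 2 had overlapping intervals. The highest library exceeded the lowest 2.24-fold for Hpgds in macrophages, and 26.6-fold for Ptgs1 in the same cells. After thinning, 7.96% (6.97–9.04) of macrophages and 0.670% (0.270–1.38) of T cells had an Hpgds UMI. No Hpgds UMI was counted in 271 endothelial cells, which allows up to 0.590 CPM by a floor of 3 UMIs and up to 0.725 CPM by the exact interval. The 23 mast cells, a type known for prostaglandin D2, read 236 CPM (146–361) from 21 UMIs.

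**Figure D4:**
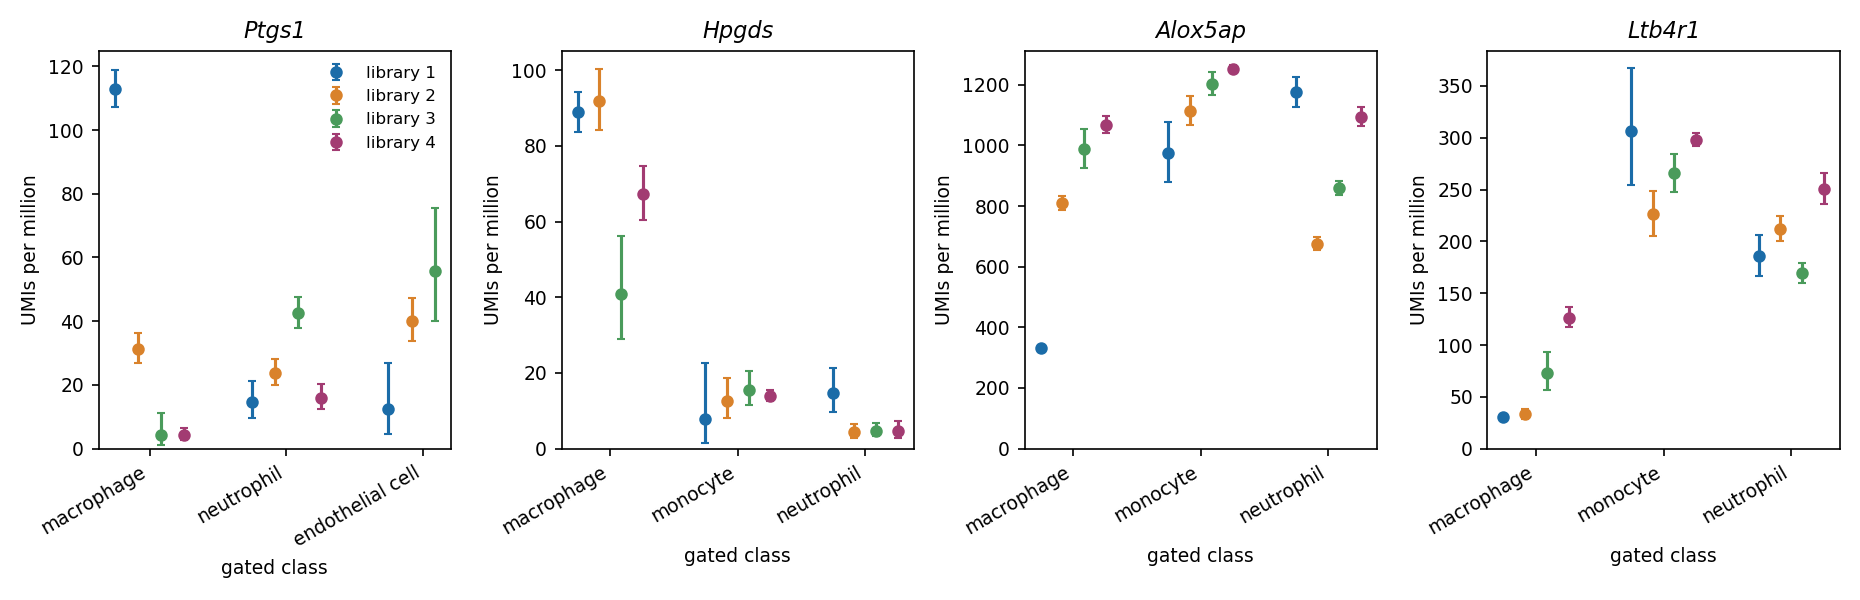
Levels of Ptgs1, Hpgds, Alox5ap and Ltb4r1 (UMIs per 1000000, exact 95% Poisson intervals) in macrophages, neutrophils and a further class, with 1 point per library; classes with under 20 cells in a library are left out. In macrophages Ptgs1 was 113 in library 1 and 4.25 in library 4, while Alox5ap was 330 in library 1 and 1069 in library 4.

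Ptger4 (chr15:5206661-5244187, minus strand), the EP4 receptor, had 6279 UMIs, and its pooled level was highest in mature DCs. Mature DCs, the migratory form that carries antigen to lymph nodes, read 191 CPM (170–213), cDC2 107 CPM (88.7–127), plasmacytoid DCs (pDC) 100 CPM (79.6–124) and cDC1 58.6 CPM (45.5–74.3). The value for mature DCs rests mainly on library 3, which held 166 of the 190 cells and read 201 CPM. Libraries 1 and 2 held 14 and 10 of them. Without library 3 mature DCs were thus too few to be ranked, and pDC led the classes that were ranked. The leading class was cDC1 in library 1, cDC2 in library 2, mature DCs in library 3 and basophils (20 cells, 112 CPM) in library 4. Only in library 3 was the interval of the leader apart from that of the second class. T cells had 45.8, 43.8, 57.7 and 63.9 CPM in libraries 1 to 4, with overlapping intervals throughout. Macrophages read 60.2, 45.5, 28.0 and 27.3 CPM, with library 1 highest. Neutrophils were at 13.3 CPM (11.7–15.0) and tumour or epithelial cells, the lowest class, at 4.03 CPM (3.61–4.49). After thinning, 18.4% of mature DCs (median 8827 UMIs) and 0.482% of tumour or epithelial cells (median 18867 UMIs) had a Ptger4 UMI.

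Ptger2 (chr14:44988195-45003820, plus strand), the EP2 receptor, was the most sparsely counted member, with 1037 UMIs. T cells read 15.0 CPM (12.0–18.4), cDC1 13.8 CPM (7.88–22.4) and neutrophils 11.8 CPM (10.3–13.5), and these 3 intervals overlapped. T cells gave 13.1, 5.62, 23 and 11.5 CPM in libraries 1 to 4. Neutrophils gave 1.09, 16.6, 11.3 and 11.1 CPM. Library 1 was again the low one in neutrophils, with 2 UMIs in 776 cells and an interval (0.131–3.92) under those of the other 3 libraries. No Ptger2 UMI was counted in the 190 mature DCs, where Ptger4 was highest, which allows up to 1.86 CPM by the floor of 3 UMIs and up to 2.28 CPM by the exact interval. Macrophages had 3.87 CPM (3.12–4.73) of Ptger2. Tumour or epithelial cells had 0.121 CPM (0.0581–0.223).

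Alox5 (chr6:116410077-116461178, minus strand) had 1894 UMIs, of which 43.9% were in neutrophils. This share was 25%, 33.5%, 66.9% and 38.6% in libraries 1 to 4. Neutrophils read 22.3, 32.8, 49.8 and 60.5 CPM in libraries 1 to 4, and the pooled 44.3 CPM (41.4–47.5) overlapped the 51.6 CPM (39.4–66.4) of 114 cDC2. Without library 4 (log2 ratio of cDC2 to neutrophil level -0.27), or with cells thinned to 1000 UMIs (-0.50), neutrophils led. In macrophages library 2 stood out at 27.7 CPM, against 4.71 to 11.9 CPM in the others. Tumour or epithelial cells, taken as the class that should lack the gene, had 0.266 CPM (0.167–0.403). The highest level was in the 47 basophils, at 260 CPM (194–341) from 52 UMIs. Basophils, rare granulocytes that make leukotrienes, were too few to be ranked in the pooled cells. In library 4, where they had 20 cells, they were ranked and led with 336 CPM (227–480) against 74.0 CPM (52.7–101) in cDC2. In unsupervised clustering, a cluster of 103 cells, of whose gated cells 59.5% were basophils, gave 216 CPM.

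Alox5ap (chr5:149264767-149288153, plus strand) had 105492 UMIs and spanned the myeloid classes. Monocytes read 1236 CPM (1224–1248), cDC2 1118 CPM (1058–1181), cDC1 947 CPM (892–1005), neutrophils 887 CPM (874–901), pDC 748 CPM (690–810) and macrophages 625 CPM (615–635). With libraries weighted equally, cDC2 and monocytes were level (log2 ratio of monocyte to cDC2 -0.018). That mean took cDC2 from libraries 2 and 4 only, where they had at least 20 cells, and monocytes from all 4. In library 2 monocytes read 1114 CPM and cDC2 1060 CPM, and in library 4 they read 1252 and 1240 CPM. Monocytes led in libraries 2 and 3. In library 1 neutrophils led, with an interval (1127–1227) above that of monocytes (878–1078). In library 4 the 20 basophils led with 1424 CPM (1187–1694), which overlapped monocytes (1239–1265). Mature DCs were the exception among DC classes, with 28.5 CPM (20.8–38.0). Only 3.24% of mature DCs had an Alox5ap UMI after thinning, against 63.2% of cDC2. Macrophages read 330, 810, 989 and 1069 CPM in libraries 1 to 4, so library 1 was lowest for Alox5ap and highest for Ptgs1. Neutrophils read 1176, 676, 859 and 1094 CPM, with library 2 lowest. Monocytes read 974, 1114, 1204 and 1252 CPM. Tumour or epithelial cells read 16.3 CPM (15.5–17.2). T cells gave 28.0, 50.6, 25.0 and 186 CPM and fibroblasts 14.0, 69.1, 27.5 and 98.9 CPM. Both were highest in library 4, the library with most monocytes, whose part in this was not tested.

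Ltb4r1 (chr14:55765962-55768494, plus strand) had 20337 UMIs and a level of 291 CPM (286–297) in monocytes and 202 CPM (195–208) in neutrophils. Monocytes read 307, 226, 266 and 298 CPM in libraries 1 to 4. Neutrophils read 186, 212, 169 and 251 CPM. Monocytes led in every library, and in library 2 the intervals of these 2 classes overlapped (205–248 and 200–224). Macrophages had 30.5, 33.0, 73.3 and 126 CPM, with libraries 1 and 2 low. Thinned shares were 23.2% of monocytes, 18.2% of neutrophils, 4.46% of macrophages and 0.356% of tumour or epithelial cells. T cells read 17.8, 79.8, 51.6 and 98.5 CPM, with library 1 lowest and library 4 highest. Fibroblasts were also highest in library 4, at 21.1 CPM. Library 4 held most monocytes, whose part in the values of both classes was not tested. The 146 T cells with Foxp3, the regulatory T cell factor, had 87.7 CPM and the 271 T cells with Cd8 and without Cd4 or Foxp3 had 13.5 CPM. The remaining 640 T cells had 59.7 CPM. After thinning, 5.52% of Foxp3 cells, 0.743% of Cd8 cells and 4.12% of the remaining T cells had an Ltb4r1 UMI. Of those Cd8 cells 248 were in library 1, where Foxp3 cells had 29.7 CPM from 3 UMIs and Cd8 cells 3.11 CPM from 5 UMIs, and their intervals overlapped. The remaining T cells of library 1 read 69.8 CPM (47.1–99.6), above the Foxp3 value. Libraries 2 and 3 had the other order. In library 2, 23 Foxp3 cells read 115 CPM (83.1–156) and the remaining T cells 30.0 CPM (16.8–49.5). In library 3, 77 Foxp3 cells read 89.1 CPM (64.0–121) and the remaining T cells 41.1 CPM (31.4–52.9).

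**Figure D5:**
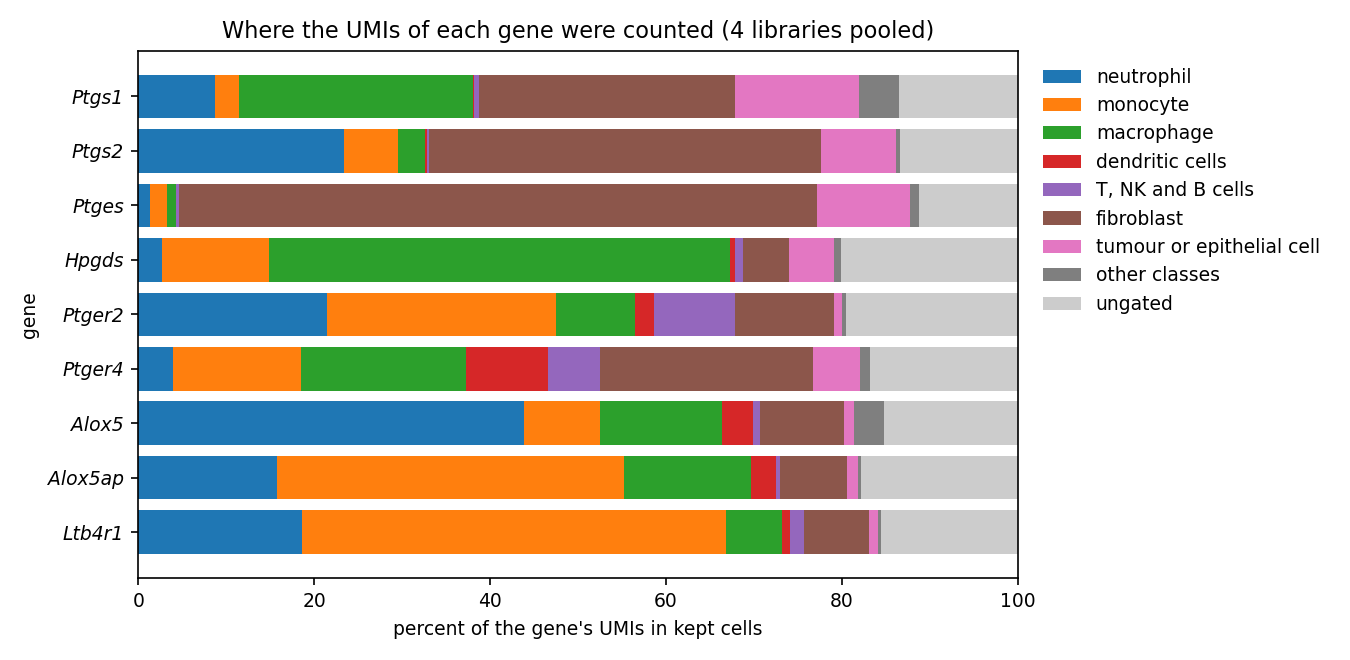
Percent of each gene's UMIs in kept cells that was counted in each group of classes, libraries pooled; bars add to 100%. Fibroblasts held 72.7% of Ptges and 44.5% of Ptgs2, macrophages 52.3% of Hpgds, and monocytes 48.2% of Ltb4r1. Shares also follow the UMIs of all genes in a class, such as 129772371 in fibroblasts and 18742282 in neutrophils. By library the monocyte share of Ltb4r1 was 8.56%, 15.0%, 27.9% and 64.4% in libraries 1 to 4.

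The successive enzymes Ptgs2 and Ptges, and Alox5 with its helper Alox5ap, were also read in the same cells, with every cell thinned to 1000 UMIs. Among fibroblasts, Ptges was seen in 23.1% of cells with Ptgs2 and 13.2% of cells without in library 1, 7.30% and 6.93% in library 2, 7.32% and 8.11% in library 3, and 6.67% and 6.35% in library 4. The binomial intervals of each pair overlapped in all 4 libraries. Thinning lowered the share of fibroblasts with Ptges from 56.4% to 7.40%, so this overlap does not show that the genes are unlinked. Among neutrophils, Alox5ap was seen in 56.2% of cells with Alox5 and 43.3% of cells without in library 2. It was seen in 63.3% and 52.9% in library 3, and in 73.7% and 60.0% in library 4. Library 1 had too few neutrophils with Alox5 for this count. The intervals overlapped in library 2 by a narrow margin (45.3–66.7 and 41.4–45.3) and were apart in libraries 3 and 4.

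The genes with the most similar pattern were sought over 30 units of class and library with at least 50 cells each, by Pearson's r of log2(CPM + 10), among genes with at least 500 UMIs. These units share libraries and classes, so r is a description. Alox5ap was most like Pirb (r = 0.97), Milr1 (0.95) and Cd68 (0.95). Ptges was most like Fzd2 (0.95), Efemp2 (0.94) and Dclk1 (0.94). Ltb4r1 came closest to Ifitm6 (0.92), and Alox5ap and Ltb4r1 themselves had r = 0.87. Ptger4 was most like Dock10 (0.90) and Myo1g (0.89), and Hpgds like Adgre1 (0.90, a gate marker of macrophages), Siglec1 (0.89) and Fcna (0.88). For Ptger2 the closest was Lcp2 (0.80), for Alox5 Gm48786 (0.87) and for Ptgs2 Sgms2 (0.86). Ptgs1 had the weakest partners, led by Mvb12b (0.66). Ptgs2 and Ptges had r = 0.38, and Ptgs1 and Ptgs2 had r = 0.45.

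Of 23 other genes of the pathway, 14 had at least 500 UMIs, and 7 of these 14 had over 50% of their UMIs in 1 class, against 24.1% of all genes of that depth. Fibroblasts led several of them. Ptgis, the prostacyclin synthase, read 144 CPM in fibroblasts with 89.1% of its UMIs there, and it read 122, 179, 107 and 153 CPM in libraries 1 to 4. The prostaglandin F receptor Ptgfr (30.9 CPM, 87.7% of UMIs) and the prostaglandin-degrading enzyme Hpgd (34.4 CPM, 86.4% of UMIs) were also highest in fibroblasts. In library 1 keratinocytes led Hpgd. Tbxas1, the thromboxane synthase, was led by macrophages in every library at 77.3, 96.7, 85.2 and 80.6 CPM. Slco2a1, which carries prostaglandins into cells, was highest in tumour or epithelial cells at 205 CPM (202–208). They led it in libraries 1 and 2, where they were ranked. Endothelial cells led it in library 3 (227 CPM) and fibroblasts in library 4 (32.6 CPM). Pooled, the prostacyclin receptor Ptgir was highest in pericytes or smooth muscle cells (45.3 CPM) and the thromboxane receptor Tbxa2r in pDC (75.7 CPM). Fibroblasts held 67.2% of Ptgir UMIs and 64.2% of Tbxa2r UMIs. Pericytes or smooth muscle cells led Ptgir in library 2 only (58.3 CPM). The leaders of Ptgir were fibroblasts in library 1 and T cells in libraries 3 (20.4 CPM) and 4 (25.2 CPM). For Tbxa2r, pDC led in libraries 2 and 4, where they were ranked. The leukotriene C4 synthase Ltc4s read 60.6 CPM in mature DCs and 43.1 CPM in macrophages. Mature DCs led it in library 3 only, macrophages in libraries 2 and 4 and endothelial cells in library 1. The cysteinyl leukotriene receptor Cysltr1 read 120 CPM (101–141) in cDC2 and 99.1 CPM (95.8–103) in monocytes, with overlapping intervals. For Cysltr1, cDC2 led in library 4 only, monocytes in libraries 2 and 3 and macrophages in library 1. The prostaglandin D2 receptors Ptgdr and Ptgdr2 had 6 and 13 UMIs, too few to place. Lta4h, which makes leukotriene B4, was lowest in neutrophils (10.3 CPM) among the ranked classes. So were the prostanoid synthase genes Ptges2 (6.40 CPM) and Ptges3 (68.6 CPM), so this was not particular to Lta4h.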

How the data were processed

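The authors deposited 1 matrix of whole-number UMI counts per gene and barcode, not scaled, made with Cell Ranger (3.0.2 in the protocol, 6.1.2 in the matrix header, 2.1.1 in the submitters' processing notes). The notes name the build mm10. The annotation used: not given in the sources used here. GENCODE vM21 held all 55450 identifiers and gave the coordinates. The labels state 15603 cells after their filter, while the matrix holds 33064 barcodes and the same filter (300 genes, 15% mitochondrial UMIs) left 32133. Doublets were not removed, and removal was tried as an alternative.

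Cells were gated by 19 sets of 6 markers. Levels were computed as UMIs per 1000000 UMIs of a class, and shares also after thinning each cell to 1000 UMIs (seed 1), which left out 1890 shallower cells. A class was ranked with at least 50 cells pooled or 20 in a library. No library could be tied to a sample, so nothing was tested. Intervals used scipy 1.17.1, and clusters and doublet scores scanpy 1.11.5. The gate, levels, thinning and intervals were tested on simulated data. The genes described are the 9 members, the 23 pathway genes and the 3 genes most like each member. Members and lists were chosen with earlier results of these data known. Where Retnlg, Arg1, Foxp3 or Cd8 divides a class, cells with at least 1 UMI are set against cells with none. Ptges shares a strand with Gm13400, and reads in both are not assigned to either by this kind of counting.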

Additional observations from a re-analysis of the deposited data

How the results depend on the processing

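No paired analysis was possible because no library is linked to a sample and no result comes from a test. The number of the 9 genes with over 50% of their UMIs in 1 class was 2. It was 1 with libraries weighted equally, since Hpgds then had 44.4% in macrophages (16.9% in library 3 and 67.8% in library 1), and 3 with classes from Leiden clusters or cells thinned to 1000 UMIs. Leaving out a library gave 2 to 3. The number with the same leading class in every library was 3, was 1 with classes from Leiden clusters, 4 after thinning, and 3 to 4 when a library was left out. The log2 ratio of macrophage to endothelial level of Ptgs1 was 0.59, -1.45 without library 1, 0.02 after thinning and 0.09 with equal weights. The ratio of monocyte to cDC2 level of Alox5ap was 0.14 and -0.018 with equal weights. For these levels, equal weights used only libraries with at least 20 cells of a class. Endothelial cells therefore lacked library 4, and cDC2 came from libraries 2 and 4, while macrophages and monocytes came from all libraries. Of 108 alternatives of the ratio of the top 2 classes over the 9 genes, 80 stayed within the counting interval. For each of the 9 genes the 108 include the ranking of classes with at least 20 cells. That setting cannot change this ratio, so it repeats the main value and counts as within the interval. The sign was opposite in 6 of the 108. Besides Ptgs1 and Alox5ap, the signs turned for pairs whose intervals overlapped. The T cell to cDC1 ratio of Ptger2 (0.12) was -0.036 with a gate of 4 markers and -0.43 without library 3. The cDC2 to neutrophil ratio of Alox5 (0.22) was -0.50 after thinning and -0.27 without library 4. A further 9 alternatives gave no value, because a class was missing, was too small or had no UMI. A ranking of classes with at least 20 cells, chosen after seeing the data, put keratinocytes first for Ptgs1 and Ptges, mast cells for Hpgds and basophils for Alox5 and Alox5ap. Classes from Leiden clusters, a planned setting, also put keratinocytes first for Ptges (138 CPM, against 77.5 in fibroblasts). They put basophils first for Alox5 and for Alox5ap (1294 CPM, against 1189 in monocytes). Over the 13 alternative settings, 15 pairs of gene and setting had another leading class than the main ranking. The causes were not tested. Depth limits Ptger2 and Alox5 most, at 1037 and 1894 UMIs in all.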
